A study of Mus musculus with 16 samples.

Results

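The liver makes most of the complement and coagulation proteins of the blood, and 37 of their genes were followed in the livers of mice that received a transferred gut microbiota. A gene was taken as measured when the gene name of a probe in the scanner files was that of the gene. Of the 37 genes, 36 had a probe of that name among the 37074 gene names of the array, and Protz, which had none, was not analysed here. The 36 genes had 57 probes, and the brightest probe of each gene was well above background on all 16 arrays.

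RNA of 1 liver per mouse was hybridized to an Agilent SurePrint array, on which the brightness of the Cy3 dye at a spot rises with the amount of 1 transcript. The mice were conventional (Conv) male C57Bl/6 mice aged 10 weeks, fed a normal chow (NC), never treated with antibiotics and fasted for 6 h. The 6 Conv + PBS mice were gavaged with sterile reduced PBS, the vehicle, although their labels call them not transplanted. The 5 Conv + LM mice received caecal microbiota of lean mice (LM) and the 5 Conv + OM(HFD) mice that of mice made obese by a high-fat diet (OM, HFD). The transferred material was a pool of several donors per group, the recipients kept the bacteria they already had, and they were housed in groups. The cage of a mouse is not given in the sources used here, so that cage and group cannot be told apart. The labels give each sample its own liver number, and each was taken here as a separate mouse. The arrays lay on 2 slides, each of which held mice of the 3 groups. Pairs of arrays correlated with an r of 0.976 to 0.993 over the genes tested. The 6 hepatocyte markers Alb, Apoa1, Ttr, Cyp2e1, Serpina1c and Tat were all measured, and their summed level lay between 12.43 and 12.78 on the log2 scale over the 16 mice.

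Complement is a chain of plasma proteins that marks and perforates microbes. It is started by antibodies (classical pathway), by sugar-binding lectins such as Mbl1 and Mbl2 with the proteases Masp1 and Masp2 (lectin pathway), or directly on surfaces with factor B, Cfb, and properdin, Cfp (alternative pathway). These routes meet at C3, go on to C5, the product of Hc, and end with a pore built of C5b, C6, C7, C8 and C9. Coagulation is a second protease chain, in which the contact factors F12, Klkb1 and Kng1 and the clotting factors lead to thrombin (F2), which turns fibrinogen (Fga, Fgb and Fgg) into fibrin. Proc, Pros1 and Proz restrain clotting, plasmin (Plg) dissolves the clot and Cpb2 slows that dissolution. Hepatocytes raise some of these genes, fibrinogen among them, in the acute phase response to inflammation, which is driven by interleukin-6 through STAT3 and by C/EBP proteins.

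RefSeq promoters (GRCm38.p6) were found for 28 of the 37 genes. Those shown belong to the genes whose slope on an acute phase index of the mice, described further on, had an unadjusted limma p under 0.05. There were 10 such genes, and 7 of them had a promoter, of which Hc alone also had an adjusted p under 0.05. The 250 bases before the start are printed from 5′ to 3′, with capitals for matches on either strand to 5 sequence motifs. These are TTCNNNGAA (STAT), CTGGGAA (the interleukin-6 response element), GTTAAT (HNF1), TTGCNNAA (C/EBP) and the NF-kB motif GGGA, N, TT, N, CC, where N is any base.
Fga (chr3:83025903-83026152, plus strand): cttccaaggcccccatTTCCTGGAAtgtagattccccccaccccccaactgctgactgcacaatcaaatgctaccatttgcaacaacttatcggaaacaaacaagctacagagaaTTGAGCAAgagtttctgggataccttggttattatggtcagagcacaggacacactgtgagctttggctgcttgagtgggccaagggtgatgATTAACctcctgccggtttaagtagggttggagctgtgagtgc
Fgb (chr3:83049864-83050113, minus strand): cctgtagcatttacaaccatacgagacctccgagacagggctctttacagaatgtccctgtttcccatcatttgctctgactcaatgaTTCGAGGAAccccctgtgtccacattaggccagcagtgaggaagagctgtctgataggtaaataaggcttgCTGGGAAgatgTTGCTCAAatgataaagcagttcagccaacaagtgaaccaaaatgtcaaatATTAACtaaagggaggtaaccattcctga
Fgg (chr3:83007474-83007723, plus strand): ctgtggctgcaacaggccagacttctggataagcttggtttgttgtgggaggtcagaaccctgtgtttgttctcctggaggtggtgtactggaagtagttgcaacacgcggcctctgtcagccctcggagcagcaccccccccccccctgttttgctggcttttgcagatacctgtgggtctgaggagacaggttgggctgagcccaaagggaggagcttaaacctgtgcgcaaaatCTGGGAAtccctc
Hc (chr2:35061413-35061662, minus strand): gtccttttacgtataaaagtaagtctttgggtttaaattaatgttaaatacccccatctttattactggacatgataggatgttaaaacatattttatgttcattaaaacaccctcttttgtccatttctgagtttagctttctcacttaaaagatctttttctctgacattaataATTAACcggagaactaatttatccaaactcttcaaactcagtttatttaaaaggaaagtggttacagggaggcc
Cfp (chrX:20931556-20931805, minus strand): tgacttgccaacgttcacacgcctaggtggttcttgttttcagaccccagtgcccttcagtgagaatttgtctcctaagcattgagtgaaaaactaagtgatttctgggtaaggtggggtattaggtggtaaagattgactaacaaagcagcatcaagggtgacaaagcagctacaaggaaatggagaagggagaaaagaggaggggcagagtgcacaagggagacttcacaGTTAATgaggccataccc
Pros1 (chr16:62854057-62854306, plus strand): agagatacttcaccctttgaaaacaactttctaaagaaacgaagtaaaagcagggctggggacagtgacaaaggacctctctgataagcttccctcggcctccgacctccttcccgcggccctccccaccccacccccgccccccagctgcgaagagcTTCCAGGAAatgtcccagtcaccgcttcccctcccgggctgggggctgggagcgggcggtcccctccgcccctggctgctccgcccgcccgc
Cpb2 (chr14:75242037-75242286, plus strand): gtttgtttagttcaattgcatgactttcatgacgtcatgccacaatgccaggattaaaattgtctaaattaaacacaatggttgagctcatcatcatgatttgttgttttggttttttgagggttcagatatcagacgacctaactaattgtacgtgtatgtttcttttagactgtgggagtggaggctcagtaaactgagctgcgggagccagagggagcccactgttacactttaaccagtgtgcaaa

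Fga held a STAT match from -234 to -226, a C/EBP match from -135 to -128 and an HNF1 match from -43 to -38, counted from the start. Fgb held a STAT match from -162 to -154, an interleukin-6 response element match from -91 to -85, a C/EBP match from -80 to -73 and an HNF1 match from -29 to -24. Fgg held the interleukin-6 response element match from -13 to -7, and Hc an HNF1 match from -74 to -69. Pros1 held a STAT match from -92 to -84 and Cfp an HNF1 match from -18 to -13, and Cpb2 held none of the letters. Different motifs did not overlap in these 7 promoters. Over the 29 promoters of the 28 genes, the STAT motif was found in 6 (7.02% of all 32851 promoters), the interleukin-6 response element in 4 (9.10%), the HNF1 motif in 10 (6.43%), the C/EBP motif in 7 (9.56%) and the NF-kB motif in 0 (0.98%). Genes that were not among the 10 held matches too. C8a, F9 and Masp2 held the STAT motif, and F9 and Masp2 the interleukin-6 response element. C3, C9, F11, F9 and Klkb1 held the C/EBP motif, and C4bp, C8a, C8b, F13b, Proz and Vtn the HNF1 motif. The slopes of F9 and Masp2 on the index were -0.02 and 0.03. These matches are a description of the letters and show no binding.

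The signal of the probes was high. After normalization, a value of 0 is the 75th percentile of all probes of an array, and a step of 1 is a doubling. The mean over the 16 mice ran from 10.71 for C3 to 3.21 for Cfp, and 27 of the 36 genes were among the brightest 10% of the 20404 genes tested. The values order probe signals and not amounts of transcript, since probes differ in how well they bind.

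**Figure D1:**
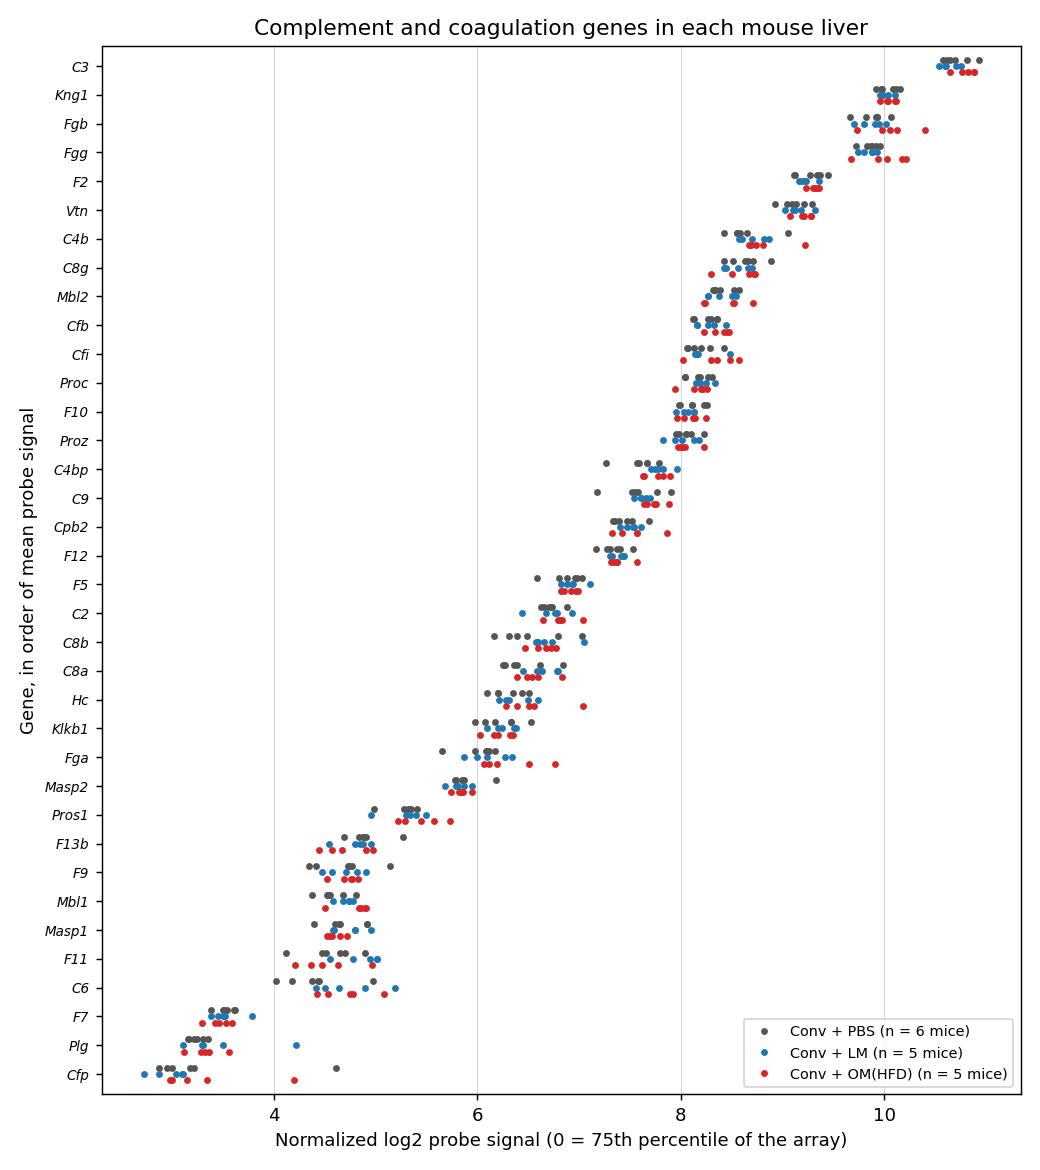
Normalized log2 probe signal (horizontal axis) of the 36 measured complement and coagulation genes (vertical axis, in order of the mean) in each mouse. Each point is 1 mouse, coloured by group. The 3 groups overlap in every gene, C3 lies highest with a mean of 10.71, and for Cfp, the lowest with a mean of 3.21, 1 Conv + PBS mouse (4.61) and 1 Conv + OM(HFD) mouse (4.19) stand apart.

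C3, the hub of complement, had a lowest, median and highest value of 10.58, 10.67 and 10.93 in Conv + PBS mice. After it came Kng1, the kininogen that releases bradykinin, with a mean of 10.03, and the fibrinogen chains Fgb and Fgg with 9.94 and 9.90. The Kng1 probe also lists an accession of Kng2, its near copy, so that signal of the 2 genes at this probe cannot be told apart. Thrombin (F2, 9.27) and vitronectin (Vtn, 9.15), an inhibitor of the membrane pore, followed. In all, 14 genes had a mean of 8 or more and 25 a mean of 6 or more. At the lower end, F13b, F9, Mbl1, Masp1, F11 and C6 had means between 4.60 and 4.82. Below them were F7 (3.51), which starts clotting with tissue factor, Plg (3.34) and Cfp (3.21).

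The genes varied little between mice of 1 group, and no less than other genes of like signal. The median SD around the group means was 0.154 on the log2 scale, against 0.240 over all genes tested, and 32 of the 36 were below that value. However, the 4563 genes whose signal lay in the same range had a median SD of 0.150. Among genes with a mean of 6 or more, the median was 0.140 for 25 complement and coagulation genes and 0.137 for 1329 genes in all. Spots of the same probe on 1 array differed by a median SD of 0.0618. This value leaves out technical differences between arrays, which were not measured here.

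**Figure D2:**
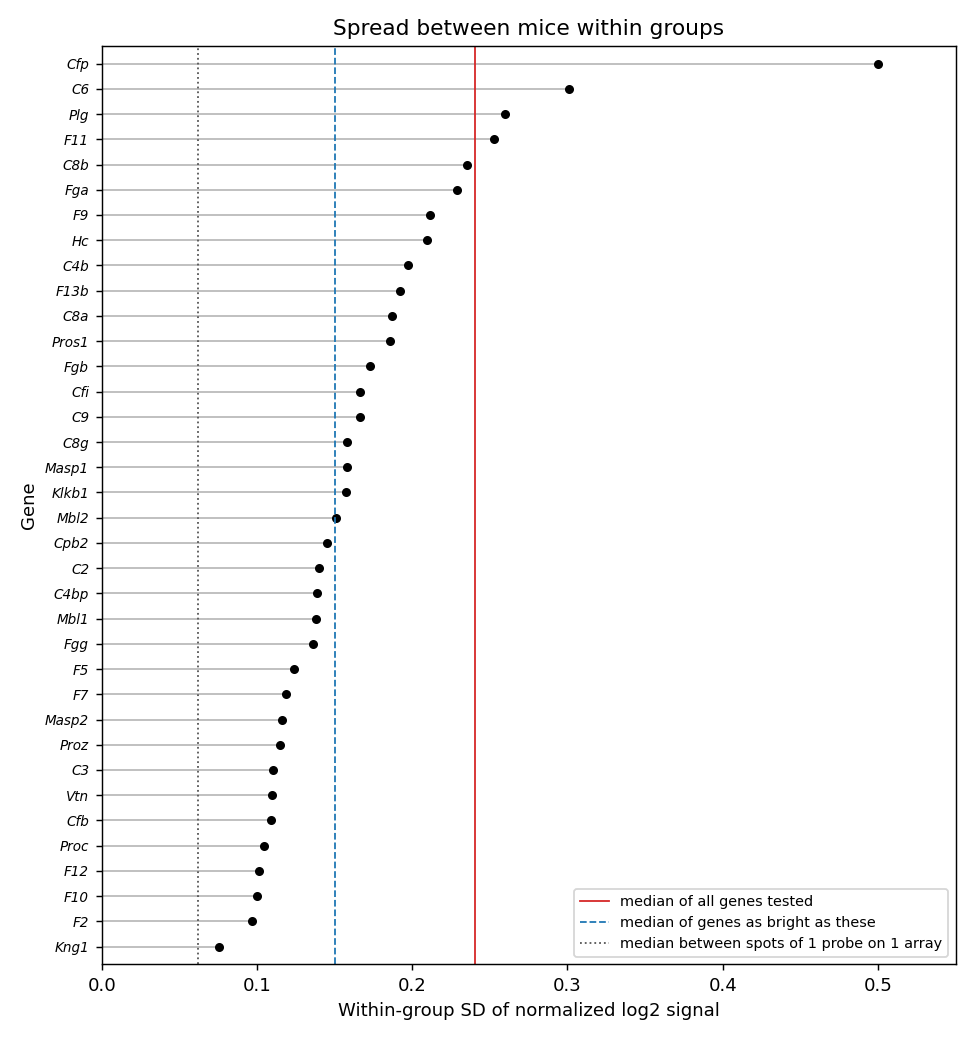
SD of the normalized log2 signal around the group means (horizontal axis, 13 degrees of freedom) for each of the 36 genes (vertical axis). Vertical lines mark the median of all genes tested (0.240), of the genes of like signal (0.150) and of repeated spots of a probe on 1 array (0.0618); Cfp is highest with 0.50 and Kng1 lowest with 0.076.

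The steadiest genes were Kng1 (SD 0.076), F2 (0.097), F10 (0.100), F12 (0.101) and Proc (0.104). F12 and Kng1 act in the contact pathway, F10 turns prothrombin (F2) into thrombin, and Proc is the anticoagulant protein C. Kng1 was steadier than all but 0.4% of the genes tested, although with quantile normalization C3 had a smaller SD. Its values in Conv + PBS mice ran from 9.91 over a median of 10.03 to 10.15, those in Conv + LM mice were 10.04, 9.99, 9.98, 10.11 and 9.96, and those in Conv + OM(HFD) mice lay between 9.96 and 10.12, so that the groups overlapped. F2 was at 9.11, 9.30 and 9.44 (lowest, median, highest) in Conv + PBS mice, at 9.19, 9.22, 9.23, 9.36 and 9.16 in Conv + LM mice and at 9.30, 9.23, 9.31, 9.34 and 9.36 in Conv + OM(HFD) mice. F10 was at 7.98, 8.11 and 8.25 (lowest, median, highest) in Conv + PBS mice, at 8.13, 8.07, 7.96, 8.12 and 8.03 in Conv + LM mice and at 8.24, 8.13, 7.96, 8.03 and 8.12 in Conv + OM(HFD) mice. The groups overlapped for both. F12 was at 7.17, 7.34 and 7.53 (lowest, median, highest) in Conv + PBS mice, at 7.30, 7.44, 7.32, 7.41 and 7.43 in Conv + LM mice and at 7.31, 7.37, 7.34, 7.38 and 7.57 in Conv + OM(HFD) mice. Proc was at 8.04, 8.18 and 8.30 (lowest, median, highest) in Conv + PBS mice, at 8.15, 8.33, 8.18, 8.24 and 8.19 in Conv + LM mice and at 7.94, 8.19, 8.13, 8.26 and 8.22 in Conv + OM(HFD) mice. For Proc, mouse 25 was the lowest of the 16 mice. By role, the median SD was 0.121 for 8 coagulation factors, 0.140 for 5 genes of complement activation, 0.173 for 3 fibrinogen genes and 0.198 for 6 genes of the terminal pathway.

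The most variable genes were Cfp (0.50), C6 (0.301), Plg (0.260), F11 (0.252) and C8b (0.236). With the authors' values, and without Conv + PBS mouse 4, Plg and not C6 was second. The SD of Cfp was at the 84.6th and that of C6 at the 63.4th percentile of all genes tested. For Plg, the zymogen of plasmin, 1 Conv + LM mouse stood apart, with values of 3.11, 4.22, 3.31, 3.50 and 3.29 in Conv + LM mice against 3.15 to 3.35 in Conv + PBS and 3.12 to 3.56 in Conv + OM(HFD) mice. C6, a component of the membrane pore, ran from 4.02 over a median of 4.40 to 4.97 in Conv + PBS mice. Its values were 4.42, 4.50, 4.64, 4.89 and 5.19 in Conv + LM mice and 4.75, 4.42, 4.78, 5.08 and 4.54 in Conv + OM(HFD) mice, so that every group was spread widely. F11, a clotting factor that activates F9, was at 4.12, 4.58 and 4.89 (lowest, median, highest) in Conv + PBS mice, at 5.01, 5.01, 4.77, 4.94 and 4.55 in Conv + LM mice and at 4.97, 4.63, 4.48, 4.36 and 4.21 in Conv + OM(HFD) mice.

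Whether the transferred microbiota was followed by another level of these genes was asked in 3 comparisons. In Conv + OM(HFD) vs. Conv + PBS mice, 26 of the 36 genes were higher and 10 lower, with a median difference of 0.09 on the log2 scale, against -0.00 for all genes. Of all genes, 10063 were higher and 10341 lower. The 54 other complement and coagulation genes named further on had a median of -0.02. No gene passed the Benjamini-Hochberg adjusted p of limma, among these 36 or among all 20404 (0%). At an unadjusted p under 0.05, limma called 2 of the 36, Fga and Mbl1, and 3.25% of all genes, and the exact permutation test called the same 2 genes and 3.15% of all. There was no gene among the 36 whose mice did not overlap between the groups, against 0.23% of all genes. As the RNA is that of whole liver, fewer cells of a type and less RNA per cell cannot be told apart.

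**Figure D3:**
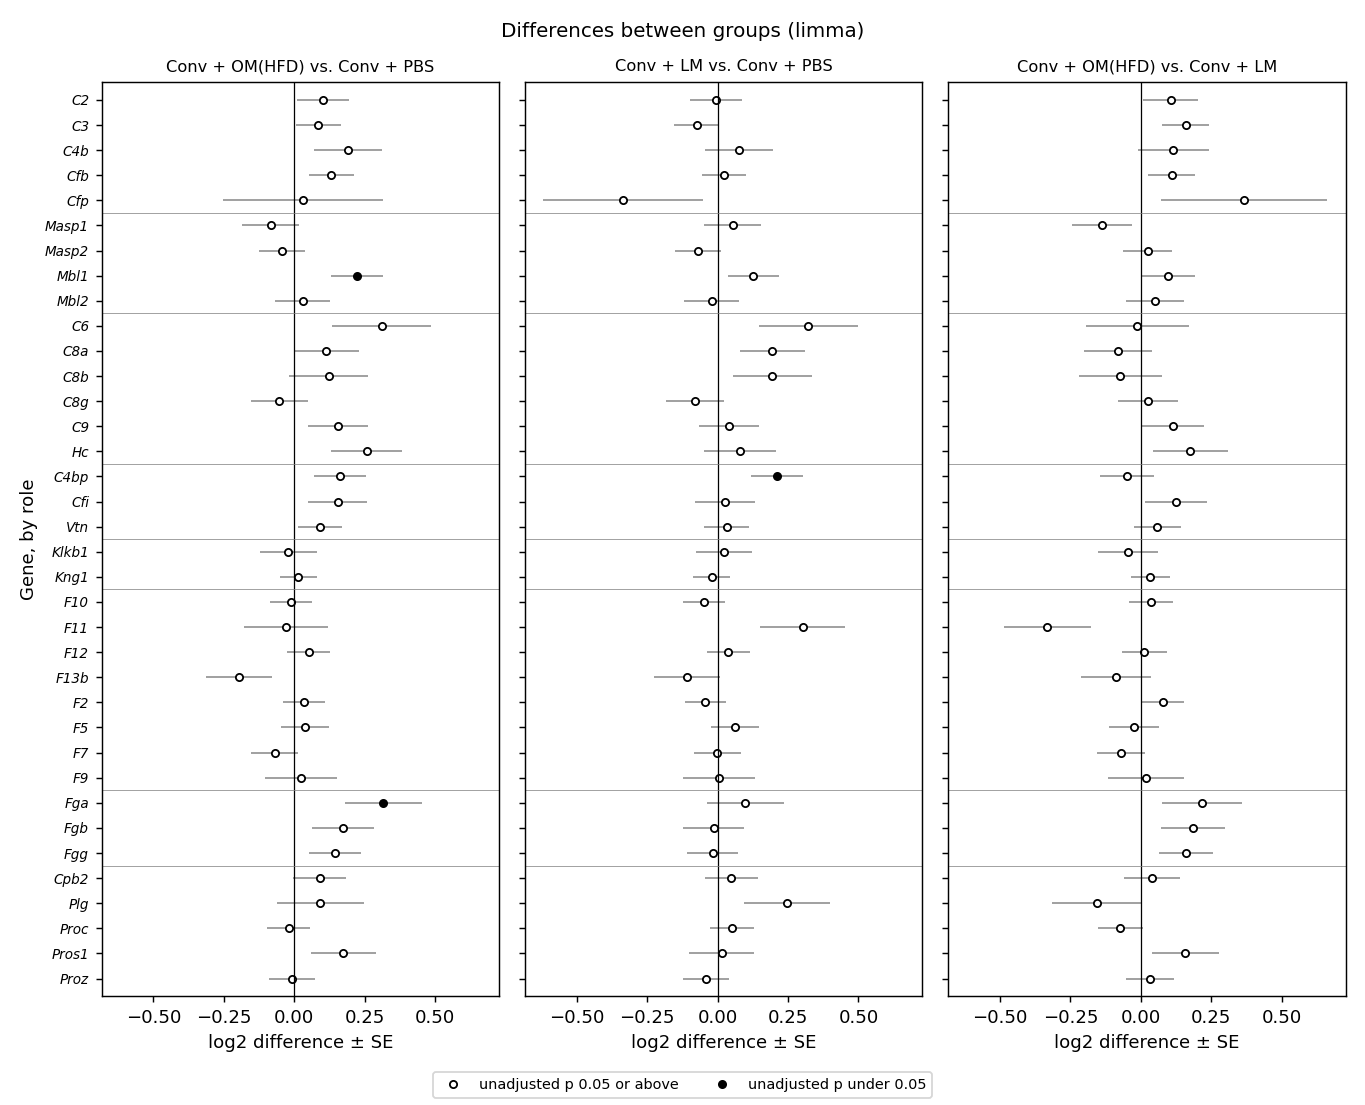
Differences in normalized log2 signal between groups (horizontal axis, ± SE of limma) for the 36 genes, ordered by role and by name (vertical axis), in 3 comparisons of 5 Conv + OM(HFD), 5 Conv + LM and 6 Conv + PBS mice. Filled points, which are Fga and Mbl1 on the left and C4bp in the middle, have an unadjusted p under 0.05, and the other points are open.

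Fga, the α chain of fibrinogen, was at 5.66, 6.09 and 6.17 (lowest, median, highest) in Conv + PBS mice, at 5.87, 6.27, 5.99, 6.34 and 6.09 in Conv + LM mice and at 6.76, 6.07, 6.19, 6.12 and 6.51 in Conv + OM(HFD) mice. Mice 25 and 30 of the Conv + OM(HFD) group lay above all the other mice, and the remaining 3 were within the range of the other groups. The difference was 0.32 ± 0.14 (SE; 6.33 ± 0.30 vs. 6.02 ± 0.19, mean ± SD, n = 5 and 6; 24.4% higher; limma p = 0.035, adjusted p = 0.99998; exact permutation p = 0.045). It was 0.21 with an unadjusted p of 0.12 without mouse 25, 0.24 (0.087) without Conv + PBS mouse 2, 0.31 (0.055) without Conv + PBS mouse 5 and 0.27 (0.086) without Conv + OM(HFD) mouse 30. On the first slide, which held mice 25 and 30, it was 0.58, and on the second -0.03. The probe of these values lies at chr3:82835678-82835737 (mm9, position given by the array design). A dimmer Fga probe at chr3:82837260-82837319 correlated with it by an r of only 0.25 across mice and differed by 0.00 between the groups.

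Mbl1, a lectin that binds microbial sugars and starts the lectin pathway, was at 4.38, 4.54 and 4.80 (lowest, median, highest) in Conv + PBS mice, at 4.58, 4.68, 4.74, 4.74 and 4.78 in Conv + LM mice and at 4.91, 4.84, 4.86, 4.90 and 4.50 in Conv + OM(HFD) mice. Of the Conv + OM(HFD) mice, 4 lay above all mice of the other groups and mouse 30 within them. The difference from Conv + PBS was 0.22 ± 0.09 (SE; 4.80 ± 0.17 vs. 4.58 ± 0.15, n = 5 and 6; 16.7% higher; limma p = 0.028, adjusted p = 0.99998; exact permutation p = 0.045). It was 0.18 and 0.29 within the first and second slide. Leaving out Conv + PBS mouse 2 or any 1 of Conv + OM(HFD) mice 25, 26, 28 and 29 gave 0.18 to 0.21, with an unadjusted p of 0.054 to 0.067. With normexp background correction it was 0.19 (unadjusted p = 0.062), and the 2 genes called were then Hc and Fga. With the mice of these 2 groups alone its unadjusted limma p was 0.052. Mbl2, the other mannose-binding lectin, differed by 0.03 ± 0.10 between these groups (8.44 ± 0.21 vs. 8.41 ± 0.11). It lay between 8.32 and 8.57 in Conv + PBS mice, 8.27 and 8.54 in Conv + LM mice and 8.23 and 8.70 in Conv + OM(HFD) mice.

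By role, the 5 genes of complement activation were all on the higher side in Conv + OM(HFD) vs. Conv + PBS mice, by 0.03 (Cfp) to 0.19 (C4b), as were the 3 of complement control, by 0.09 (Vtn) to 0.16 (C4bp), and the 3 fibrinogen genes, by 0.14 (Fgg) to 0.32 (Fga). Of the 6 terminal genes, 5 were on the higher side, among them Hc with 0.26 ± 0.13 (unadjusted p = 0.061) and C6 with 0.31 ± 0.17 (0.097). The 8 coagulation factors had a median of 0.01 and ran from -0.20 (F13b) to 0.05 (F12). Apart from Fga and Mbl1, none of these differences had an unadjusted p under 0.05. Without mouse 25, 0 of the 36 genes had one (2.83% of all genes), 27 were on the higher side and the median was 0.05. Cfp was then lower by -0.18, and Hc was at 0.14 and C6 at 0.30. On the first slide 24 of the 36 were on the higher side and on the second 17. On the second slide, C2 (-0.04), C3 (-0.05), C4b (-0.02) and Cfp (-0.41) of complement activation, Vtn (-0.07) and all 3 fibrinogen genes, Fga (-0.03), Fgb (-0.08) and Fgg (-0.05), were on the lower side.

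In Conv + LM vs. Conv + PBS mice, 22 genes were higher and 14 lower, with a median of 0.02, against -0.01 for all genes. Of all genes, 9578 were higher and 10826 lower, and the 54 other complement and coagulation genes had a median of -0.04. The adjusted p called 0 of the 36 and 0% of all genes, and the unadjusted p called 1 of the 36, C4bp, and 3.88% of all genes. No gene of the 36 was without overlap between the groups, against 0.279% of all genes. C4bp, which holds back the classical and lectin pathways as a cofactor of factor I, was at 7.26, 7.63 and 7.78 (lowest, median, highest) in Conv + PBS mice, at 7.74, 7.77, 7.82, 7.96 and 7.70 in Conv + LM mice and at 7.89, 7.63, 7.63, 7.77 and 7.83 in Conv + OM(HFD) mice. The lowest Conv + LM mouse was above 5 of the 6 Conv + PBS mice, and Conv + PBS mouse 6 was far below the rest. The difference was 0.21 ± 0.09 (SE; 7.80 ± 0.10 vs. 7.59 ± 0.18, n = 5 and 6; 15.7% higher; limma p = 0.037, adjusted p = 0.998; exact permutation p = 0.024), and 0.15 and 0.26 within the first and second slide. Without Conv + PBS mouse 6, the low one, it was 0.15 with an unadjusted p of 0.088, and without Conv + PBS mouse 3 or 5 or Conv + LM mouse 15 or 16 it was 0.17 to 0.21 with a p of 0.053 to 0.10. The other C4bp probe, with a mean of -1.76, differed by -0.24 (unadjusted p = 0.43) and had an r of 0.07 with the first, and the mean of both probes differed by -0.01. C6 differed by 0.32 ± 0.17 (unadjusted p = 0.085) and F11 by 0.30 ± 0.15 (0.061).

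In Conv + OM(HFD) vs. Conv + LM mice, 24 genes were higher and 12 lower, with a median of 0.04, against 0.00 for all genes. Of all genes, 10412 were higher and 9992 lower, and the 54 other complement and coagulation genes had a median of -0.00. Limma called 0 of the 36 at an adjusted p (0% of all genes) and 0 at an unadjusted p under 0.05 (2.67% of all genes), and 0 were without overlap (0.436% of all genes). The exact permutation test of each gene called 2 at an unadjusted p under 0.05, C3 and C9, and 2.99% of all genes. C3 was at 10.61, 10.53, 10.70, 10.76 and 10.59 in Conv + LM mice and at 10.77, 10.64, 10.82, 10.88 and 10.88 in Conv + OM(HFD) mice, so that mouse 26 lay within the lean group. Its difference was 0.16 ± 0.08 (SE; exact permutation p = 0.032; limma p = 0.072). C9, the protein that forms the ring of the pore, differed by 0.11 ± 0.11 (exact permutation p = 0.040; limma p = 0.32). The smallest p of limma was that of F11, at a difference of -0.33 ± 0.16 (limma p = 0.051; exact permutation p = 0.079). With slide as a block, limma called C3 and F11 in this comparison (4.22% of all genes) and C4bp and F11 in Conv + LM vs. Conv + PBS (4.70% of all genes) at an unadjusted p under 0.05. Without mouse 25, limma called 1 gene of the 36, F11, in this comparison (3.41% of all genes) and 2, C4bp and F11, in Conv + LM vs. Conv + PBS (4.19% of all genes). The 3 comparisons share groups of mice.

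The genes were then set against the level of acute phase transcripts in each liver. An acute phase index was formed as the mean over 20 acute phase genes outside the 36, such as the serum amyloids Saa1 and Saa2, Orm1, Lcn2 and Hpx, of the deviation from the group mean in units of the gene's SD within groups. It was scaled to an SD of 1 within groups, and since it is centred on each group it carries no difference between groups. Of the 20 genes, Crp followed it least (r = 0.12). The index was 2.52 in Conv + OM(HFD) mouse 25 and 1.20 in Conv + PBS mouse 1, and -1.56 in Conv + OM(HFD) mouse 26 and -1.14 in Conv + PBS mouse 2. The other 12 mice lay between -0.51 and 0.54. Saa1 was at 9.58 in mouse 25 and at 4.35 to 5.86 in the other Conv + OM(HFD) mice. Mouse 25 had the highest value of the 16 mice for 12 of the 36 genes and the lowest for 3.

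**Figure D4:**
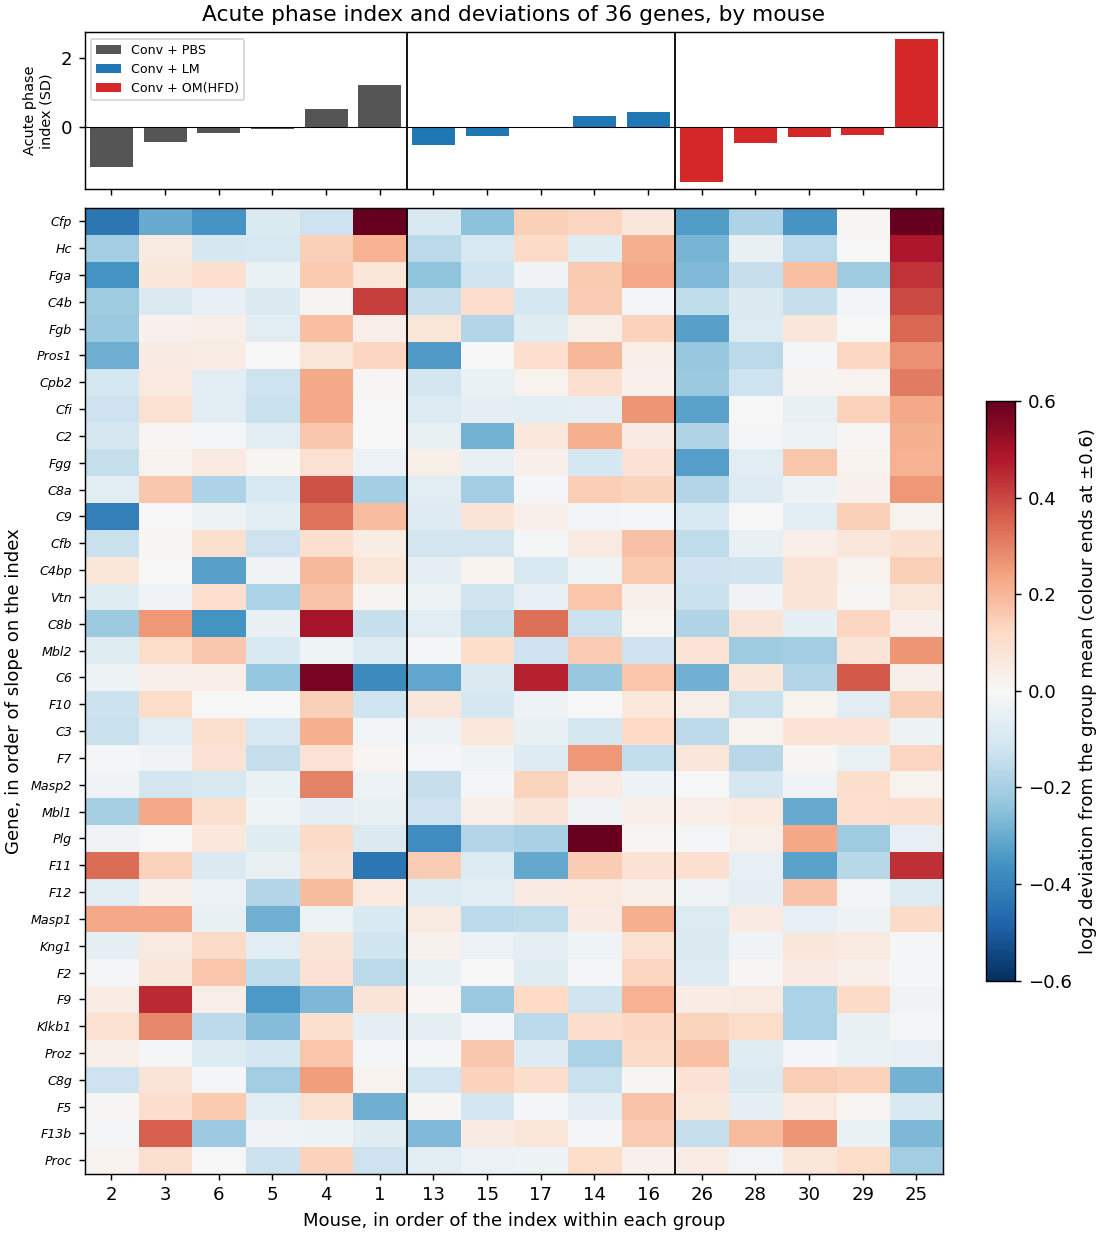
Acute phase index of each mouse (top, in SD within groups, bars coloured by group) and deviation of the 36 genes from their group mean (bottom, log2, colour scale ending at ±0.6), with mice ordered by the index within each group and genes by their slope on it. The genes at the top, from Cfp to Fgg, were above their group mean in mouse 25 (index 2.52), and Proc, at the bottom, was below it.

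Of the 36 slopes on the index, 28 were above 0 and 8 below, with a median of 0.04 per SD of the index, against -0.01 for all genes. At an unadjusted limma p under 0.05, 10 of the 36 passed, all with a slope above 0, against 9.51% of all genes in either direction. At an adjusted p under 0.05, 1 of the 36 passed, Hc, against 0.157% of all 20384 genes tested. All 3 fibrinogen genes, 3 of the 5 genes of complement activation (Cfp, C4b and C2), 2 of the 5 anticoagulant and fibrinolysis genes (Cpb2 and Pros1), Hc and Cfi made up the 10. None of the 8 coagulation factors, the 4 lectin pathway genes and the 2 contact genes was among them, and their slopes ran from -0.05 to 0.04. Which genes passed depended on mouse 25. Without it the number was again 10 (11.3% of all genes), but 7 of the genes were shared. Fgg (unadjusted p = 0.12), C2 (0.094) and Cpb2 (0.070) no longer passed, and Cfb (0.042), C9 (0.0070) and the coagulation factor F11 (0.013) did. The slope of F11 went from 0.02 to -0.15, so that not all the slopes that passed were then above 0. The permutation test within groups passed 0 genes at an adjusted p. With 100000 permutations its smallest p is 1e-05, at which 1 gene alone cannot pass over 20308 genes, so this 0 decides little. At an unadjusted p under 0.05 it passed 12 of the 36 for Pearson's r, against 9.25% of all genes, and 12 for Spearman's rho, against 8.53%.

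**Figure D5:**
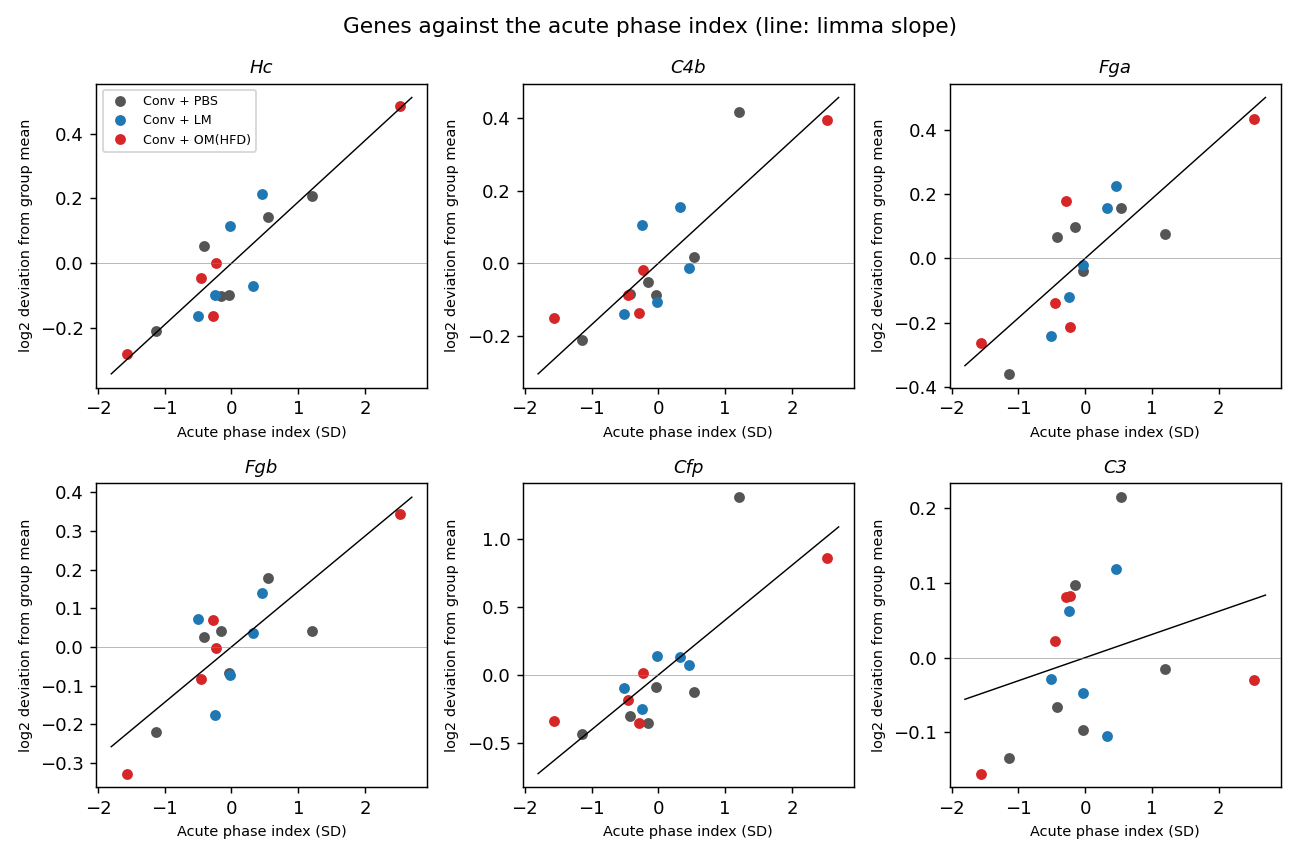
Deviation from the group mean (vertical axis, log2, each panel with its own scale) of Hc, C4b, Fga, Fgb, Cfp and C3 against the acute phase index (horizontal axis, SD), with 1 point per mouse, coloured by group, and the limma slope as a line. Hc rises by 0.19 per SD, and its mouse at 2.52 is mouse 25; C3 had a slope of 0.03 with all mice and 0.08 without mice 25 and 1.

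Hc encodes C5, which is cut to release the inflammatory peptide C5a and to start the pore. It was at 6.09, 6.28 and 6.51 (lowest, median, highest) in Conv + PBS mice, at 6.22, 6.31, 6.28, 6.59 and 6.49 in Conv + LM mice and at 7.04, 6.28, 6.51, 6.56 and 6.39 in Conv + OM(HFD) mice. Mouse 25 was the highest of all, and the next mouse was at 6.59. The slope was 0.19 ± 0.03 per SD of the index (limma adjusted p = 0.044), with a Pearson's r of 0.90 (permutation p = 0.00016, adjusted 0.14) and a Spearman's rho of 0.82 (permutation p = 0.00054, adjusted 0.21) over 16 mice. Without mice 25 and 1, the 2 farthest from the median of the index, r was 0.77 and the slope 0.11 with an adjusted p of 0.31. The slope was 0.19 and 0.24 within the first and second slide. It stayed at 0.12 to 0.20 when any 1 mouse was left out, and its adjusted p was above 0.05 without any 1 of 13 mice, all but Conv + PBS mice 3 and 4 and Conv + LM mouse 14. The probe lies at chr2:34839283-34840229 (mm9).

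C4b, the C4 of the classical and lectin pathways, was at 8.42, 8.56 and 9.05 (lowest, median, highest) in Conv + PBS mice, at 8.57, 8.86, 8.81, 8.70 and 8.60 in Conv + LM mice and at 9.22, 8.67, 8.74, 8.81 and 8.69 in Conv + OM(HFD) mice. Mouse 25 and Conv + PBS mouse 1 lay above all the others. Its slope was 0.17 ± 0.04 (adjusted p = 0.065), with r = 0.86 (permutation p = 0.00032, adjusted 0.15) and rho = 0.83 (permutation p = 0.00046, adjusted 0.21), and without these 2 mice the slope was 0.05 (adjusted p = 0.55) and r 0.66. The dimmer C4b probe, which also lists an accession of the near copy C4a, followed the first with an r of 0.92. C2, which joins C4b to form the C3 convertase, had a slope of 0.09 ± 0.04 (unadjusted p = 0.021). C3 had a slope of 0.03 ± 0.04 and an r of 0.28, and in mouse 25 it was at 10.77, within the range of its group. Without mice 25 and 1 its slope was 0.08 (unadjusted p = 0.039) with an r of 0.63, and its dimmer probe had a slope of 0.11 (unadjusted p = 0.0061) with all mice.

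The fibrinogen chains had slopes of 0.19 ± 0.04 (Fga), 0.14 ± 0.03 (Fgb) and 0.09 ± 0.04 (Fgg), with adjusted p of 0.087, 0.10 and 0.40. Fgb was at 9.66, 9.92 and 10.06 (lowest, median, highest) in Conv + PBS mice, at 9.94, 9.91, 9.70, 10.01 and 9.80 in Conv + LM mice and at 10.40, 9.73, 9.98, 10.06 and 10.13 in Conv + OM(HFD) mice. Fgg was at 9.72, 9.88 and 9.95 (lowest, median, highest) in Conv + PBS mice, at 9.88, 9.74, 9.80, 9.93 and 9.87 in Conv + LM mice and at 10.21, 9.67, 9.94, 10.03 and 10.17 in Conv + OM(HFD) mice. Mouse 25 was the highest of the 16 for both. Without it, the slopes were 0.13 (Fga), 0.10 (Fgb) and 0.06 (Fgg). The 3 chains form 1 protein, and their deviations from the group means went together across the 16 mice. Fga and Fgb had an r of 0.82 and a rho of 0.78 (permutation p = 0.00079 and 0.0029, adjusted over the 10 pairs of genes compared 0.0039 and 0.011). The values were 0.69 and 0.72 for Fga and Fgg (permutation p = 0.015 and 0.010, adjusted 0.029 and 0.022) and 0.85 and 0.84 for Fgb and Fgg (permutation p = 0.0004 and 0.00074, adjusted 0.0039 and 0.0074). With the 2 mice farthest on the first gene left out, r was 0.68, 0.55 and 0.68. The second Fga probe is an exception, with a slope of -0.01.

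Of the 3 chains of C8, C8a and C8b had an r of 0.69 and a rho of 0.69 (permutation p = 0.012 and 0.011, adjusted 0.029 and 0.022; r = 0.56 without the 2 farthest mice). C8g had an r of 0.03 and a rho of 0.01 with C8a (adjusted permutation p = 0.93 and 0.98), and 0.41 and 0.27 with C8b (adjusted permutation p = 0.19 and 0.38). C8a and C8b encode chains that insert into the membrane and C8g a lipocalin-like chain. C8a was at 6.25 to 6.84 in Conv + PBS mice, 6.45 to 6.80 after lean microbiota and 6.39 to 6.83 after HFD-microbiota, C8b at 6.17 to 7.02, 6.58 to 7.05 and 6.47 to 6.78, and C8g at 8.43 to 8.89, 8.42 to 8.69 and 8.30 to 8.73. Mouse 25 was the lowest of its group for C8g and the highest for C8a. Between the homologs C3, C4b and Hc, C4b and Hc went together (r = 0.72, rho = 0.74, permutation p = 0.0086 and 0.0032, adjusted 0.029 and 0.011), but r was 0.38 without the 2 farthest mice, on which the relation rested. C3 had an r of 0.11 and a rho of 0.37 with C4b (adjusted permutation p = 0.79 and 0.24) and 0.31 and 0.39 with Hc (adjusted permutation p = 0.33 and 0.23). Mbl1 and Mbl2 had an r of 0.52 and a rho of 0.44 (adjusted permutation p = 0.11 and 0.17).

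Cpb2, the carboxypeptidase that protects fibrin, had a slope of 0.12 ± 0.03 (adjusted p = 0.14), and of 0.07 (unadjusted p = 0.070) without mouse 25. It was at 7.33, 7.43 and 7.68 (lowest, median, highest) in Conv + PBS mice, at 7.40, 7.61, 7.47, 7.54 and 7.53 in Conv + LM mice and at 7.86, 7.32, 7.42, 7.57 and 7.56 in Conv + OM(HFD) mice. Mouse 25 was the highest of the 16. Pros1, the cofactor of protein C, had a slope of 0.14 ± 0.04 (adjusted p = 0.15), with r = 0.77 (permutation p = 0.00003, adjusted 0.10) and rho = 0.82 (permutation p = 0.00021, adjusted 0.21), and an r of 0.74 without the 2 mice farthest on the index. It was at 4.99, 5.32 and 5.41 (lowest, median, highest) in Conv + PBS mice, at 4.95, 5.49, 5.30, 5.33 and 5.39 in Conv + LM mice and at 5.73, 5.22, 5.29, 5.58 and 5.44 in Conv + OM(HFD) mice. Cfi, the protease that cleaves C3b and C4b, had a slope of 0.11 ± 0.04 (adjusted p = 0.32). It was at 8.06, 8.16 and 8.42 (lowest, median, highest) in Conv + PBS mice, at 8.14, 8.16, 8.16, 8.48 and 8.15 in Conv + LM mice and at 8.57, 8.02, 8.35, 8.48 and 8.30 in Conv + OM(HFD) mice, with mice 25 and 26 as the extremes of the 16.

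Properdin, Cfp, which holds together the convertase of the alternative pathway, is made mainly by leukocytes. It had the largest slope, 0.40 ± 0.08 (adjusted p = 0.065), with r = 0.80 (permutation p = 0.00026, adjusted 0.14) and rho = 0.76 (permutation p = 0.00082, adjusted 0.22), and an r of 0.65 without mice 25 and 1. Without them its slope was 0.11 (unadjusted p = 0.017, adjusted p = 0.31), below those of C6 (0.17), Fga (0.14) and C8b (0.13) among others. Its values were 2.87, 3.09 and 4.61 (lowest, median, highest) in Conv + PBS mice, 2.87, 3.10, 2.72, 3.04 and 3.11 in Conv + LM mice and 4.19, 3.0, 3.15, 3.35 and 2.98 in Conv + OM(HFD) mice. Mouse 1 and mouse 25 thus stood far above the other 14, which lay between 2.72 and 3.35. Without mouse 1 the SD of Cfp fell from 0.50 to 0.318 and the slope was 0.29 with an adjusted p of 0.026, and without mouse 25 the slope was 0.34 with an adjusted p of 0.21. The second Cfp probe followed the first with an r of 0.97.

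In the same mice, markers of macrophages and other leukocytes were high. The summed log2 level of the 7 Kupffer cell and macrophage markers, all 7 measured, lay between 5.48 and 7.96 in Conv + PBS mice, 5.18 and 5.78 after lean microbiota and 5.38 and 6.80 after HFD-microbiota. That of the neutrophil markers, of which 5 of 7 were measured and Ltf and Retnlg were not above background on enough arrays, lay between -0.22 and 4.95, -0.33 and 0.70, and -0.55 and 4.86. That of the B and plasma cell markers, with 5 of 7 measured and Cd79a and Igj not, lay between -0.70 and 1.17, 0.06 and 1.01, and -0.19 and 1.45. The mean neutrophil marker was at 1.03 in mouse 1 and 0.76 in mouse 25, against -3.59 to -2.01 in the other mice. The deviation of Cfp correlated with that of the Kupffer cell list by an r of 0.96 and a rho of 0.90 (permutation p = 0.00012 and 0.00002, adjusted over 3 relations 0.00036 and 0.00006), and by an r of 0.82 without the 2 mice farthest on the list. With the neutrophil list r was 0.90 and rho 0.60 (permutation p = 0.012 and 0.032, adjusted 0.017 and 0.048), and r 0.43 without the 2 farthest mice. With the B and plasma cell list r was 0.74 and rho 0.42 (permutation p = 0.017 and 0.13, adjusted 0.017 and 0.13), and r 0.18 without them, so that these 2 relations rested on those mice. The part of these cells in the level of Cfp was not tested.

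Other complement and coagulation genes outside the 36 were counted from a list of 63, of which 61 were on the array and 54 were tested. In Conv + OM(HFD) vs. Conv + PBS mice, 4 of the 54 had an unadjusted p under 0.05 (3.25% of all genes), 1 higher and 3 lower, and none passed the adjusted p. C1ra, a protease of the first complement complex, was higher by 0.28 ± 0.09 (exact permutation p = 0.0065). Colec10 and Colec11, collectins that start the lectin pathway, were lower by -0.47 ± 0.12 (exact permutation p = 0.0022, the smallest possible) and -0.27 ± 0.12 (exact permutation p = 0.035). Tfpi, the inhibitor of the tissue factor pathway, was lower by -0.35 ± 0.14 (exact permutation p = 0.048). In Conv + LM vs. Conv + PBS mice limma called 1 of the 54 (3.88% of all genes), the ficolin Fcna, which was lower by -0.42 ± 0.18 (exact permutation p = 0.054). In Conv + OM(HFD) vs. Conv + LM mice limma called 4 (2.67% of all genes), of which C1ra was higher by 0.22 ± 0.10 (exact permutation p = 0.087). Colec10 (-0.27 ± 0.12, exact permutation p = 0.056), Colec11 (-0.27 ± 0.13, exact permutation p = 0.063) and Adamts13 (-0.35 ± 0.16, exact permutation p = 0.048), the protease of von Willebrand factor, were lower. On the acute phase index, 17 of the 54 had an unadjusted p under 0.05 (9.51% of all genes), 14 with a slope above 0 and 3 below. The 3 chains of C1q, which macrophages make, had slopes of 0.49 (C1qa), 0.46 (C1qb) and 0.44 (C1qc), with adjusted p of 0.12, 0.13 and 0.072. Slopes with an adjusted p between 0.05 and 0.1 were also those of Serpina10, the inhibitor that works with protein Z (0.23, 0.062), and of Itgax, a chain of complement receptor 4 (0.44, 0.096). Colec10 was among the 3 genes with a slope below 0 (-0.14 ± 0.04, unadjusted p = 0.0037), with Cd59b and F2r.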

How the data were processed

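Liver RNA of 16 mice, 5 Conv + OM(HFD), 5 Conv + LM and 6 Conv + PBS, was hybridized by the authors to Agilent SurePrint G3 Mouse GE v2 arrays from 200 ng of total RNA and extracted with Agilent Feature Extraction 10.10.1.1. The deposited intensity values are spot signals on a linear scale, corrected for background array by array and not made comparable between arrays. A table of log2 values that the authors also deposited served as an alternative. By its match to the scanner output it is quantile-normalized log2 median signal, with column medians of 5.49 to 5.52.

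Control spots and outlier spots (at most 206 per array) were left out. Signals were put on the log2 scale, spots of a probe were averaged, and each array's 75th percentile (153 to 220 on the linear scale) was taken off. Between 49.7% and 58.3% of probes per array were well above background, and the number of arrays limits the precision. The filter kept probes above background on 5 or more of the 16 arrays (30664 probes, 20404 gene names), and a gene was read from its brightest probe. No value of the 36 genes was missing and none of their probes was saturated. A second probe was kept for 14 of the 36 genes, and it followed the first with an r above 0.5 in 8 of them and not in 6 (C4bp, Fga, Kng1, Masp1, Plg and Proz; lowest r 0.02). Gene names and probe positions (mm9) come from the array design, and promoters from RefSeq (GRCm38.p6).

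The group model was fitted with limma 3.58.1 under R 4.3.3 (lmFit, eBayes), with all mice in 1 fit and Benjamini-Hochberg adjustment over all genes. For single genes, a two-sided exact permutation test over mice was added, whose smallest p is 0.00216 for 5 against 6 mice and 0.00794 for 5 against 5. Student's unpaired test on these values is called the methods' t-test. Slopes on the acute phase index were fitted in limma beside the group terms, over 20384 genes. Correlations of deviations from group means were tested with 100000 two-sided permutations within groups over 20308 genes, and their smallest p is 1e-05. The fits were tested on simulated data.

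The 37 genes and the other lists were chosen with earlier results of these data known. Values were given by mouse or as the range of each group for genes at an unadjusted p under 0.05 in a comparison, for the up to 8 genes of smallest slope p, for the 5 of largest and 5 of smallest SD within groups, and for Fga, Fgb and Fgg, C8a, C8b and C8g, Mbl1 and Mbl2, and C3, C4b and Hc. Genes of the other list were named at an unadjusted p under 0.05, and further genes were named by their place in a range or count after their values were seen. The values of 1 gene of the other list are not reported here. Alternatives were normexp background correction (offset 50), quantile normalization, the authors' log2 values, other filters on dim probes, the mean over a gene's probes, slide as a block, array weights, other forms of the index and leaving out mice. Markers of endothelial cells, bile ducts, stellate cells, pancreas and red blood cells were also summed, and their log2 sums lay between 3.90 and 4.41, -0.74 and 0.93, 5.82 and 6.55, 3.99 and 5.49, and 7.97 and 9.55.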

Additional observations from a re-analysis of the deposited data

Results flagged for a closer look

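In 10 of the 108 sets of 5 or 6 mice (36 genes in 3 groups), the highest or the lowest mouse stood apart from its group by Dixon's criterion, where chance gives about 1 in 20. Conv + PBS mouse 1 was high for C4b (9.05, next mouse 8.65) and for Cfp (4.61, next 3.22), and Conv + OM(HFD) mouse 25 was high for C4b (9.22, next 8.81). These are the 2 mice with the highest acute phase index and the highest neutrophil marker levels, whose part in these values was not tested. Conv + OM(HFD) mouse 30 was low for Mbl1 (4.50, next 4.84) and high for F12 (7.57, next 7.38). In Conv + PBS mice, mouse 4 was high for Masp2 (6.18, next 5.86), mouse 3 high for F13b (5.27, next 4.90) and mouse 2 low for Pros1 (4.99, next 5.28). Conv + LM mouse 16 was high for Cfi (8.48, next 8.16), and Conv + OM(HFD) mouse 26 was high for Proz (8.23, next 8.04).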

How the results depend on the processing

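No setting gave a gene of the 36 an adjusted p under 0.05 in a comparison of groups. The number at an unadjusted p under 0.05 in Conv + OM(HFD) vs. Conv + PBS mice, 2 in the report, was 4 with the authors' values, 1 each with the mean of all probes, with array weights, with the mice of these groups alone and with the methods' t-test, and 0 to 5 when 1 mouse was left out (0 without Conv + PBS mouse 2 or Conv + OM(HFD) mouse 25). In Conv + LM vs. Conv + PBS mice, 1 in the report, it was 2 each with the authors' values, slide as a block and array weights, 0 each with no filter, the mean of all probes and the mice of these groups alone, and 0 to 4 when 1 mouse was left out. In Conv + OM(HFD) vs. Conv + LM mice, 0 in the report, it was 1 each with normexp, only probes above background on all arrays, the mean of all probes and array weights, 2 each with slide as a block, the methods' t-test and the exact permutation test, and 0 to 3 when 1 mouse was left out. The difference of C4bp in Conv + LM vs. Conv + PBS mice turned to -0.013 with the mean of both probes. Over these settings limma called 2.44% to 4.28%, 2.75% to 4.91% and 1.96% to 4.22% of all genes in the 3 comparisons.

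The number of slopes on the acute phase index at an adjusted p under 0.05, 1 in the report (0.157% of all genes), was 6 with quantile normalization (1.16%), 4 with normexp (0.736%) and with the authors' values (1.46%), 3 with an index of unscaled values (1.17%) and with Saa1 and Saa2 alone (1.81%), 2 with only probes above background on all arrays (0.469%), 0 with array brightness as a covariate (0.0981%), with the permutation test (0%) and without the 2 mice farthest on the index, 25 and 1 (0%), and 0 to 1 when 1 mouse was left out (0% to 0.235%). The 0 of the permutation test is limited by the number of permutations, as said above. With the mean of all probes the 1 gene was C4b and not Hc. At an unadjusted p it ran from 7 to 13 of the 36 over the settings, against 8.07% to 12.5% of all genes. The number of genes below the median SD of all genes, 32 in the report, was 20 with normexp, which changed the median over all genes to 0.162 and that of the 36 to 0.156, and 31 to 33 when 1 mouse was left out. The causes were not tested. No paired analysis was possible because no replicate number occurs in more than 1 group.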
